A study of Arabidopsis thaliana with 16 samples.

Results

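Roots and shoots of the same seedlings can answer warmth unequally. The values examined here are the difference between the 2 organs in their response to a uniform 32 °C, that is, the change in the root minus the change in the shoot. They come from 10 of the 16 samples of an RNA-seq series on 10 day old wild-type Arabidopsis thaliana seedlings. The groups were roots kept at 32 °C (3 samples), roots kept at 22 °C (2 samples), shoots kept at 32 °C (3 samples) and shoots kept at 22 °C (2 samples). All seedlings first grew for 4 days at 22 °C on half-strength MS medium (MS1/2), and the last 6 days were spent at 32 °C or 22 °C over the whole plant. No mutation, transgene or agent other than temperature is given in the labels. The other 6 samples, in which shoots at 32 °C stood above a cooling root zone, entered only 2 steps. These were the choice of genes to test and the estimate of the spread between libraries.

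Heat unfolds proteins, and plant cells answer through heat shock factors, transcription factors that switch on chaperones such as HSP70, HSP90, HSP101 and the small heat shock proteins. Milder warmth also triggers thermomorphogenesis, an elongation growth of the shoot that runs through PIF transcription factors and auxin. Roots and shoots differ in what else they express. The root takes up water, phosphate and iron through aquaporins and transporters and seals its endodermis with suberin, while the shoot carries photosynthesis and most of the anthocyanin.

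The deposited values were the authors' normalised counts, whole numbers whose column totals lay between 33075029 and 34769425. Replicates 1 and 2 of the 22 °C roots were identical at every locus and were counted as 1 library, so each root response rests on 3 libraries at 32 °C and 1 at 22 °C. That library was assumed to vary like the others. Whether replicates were grown as separate cultures is not in the labels, so the p-values reflect library-to-library spread alone, part or all of which may be technical. In markers of green tissue the organs went with their labels. The 13 green tissue markers summed to 2180 to 4829 in 32 °C roots and 5550 in the 22 °C root library, against 1324347 to 1418241 in 32 °C shoots and 2823134 to 2938806 in 22 °C shoots. The 10 root tissue markers, given further on, summed higher in roots than in shoots at each temperature. They were also above 0 in every shoot library, and their sum was higher in 32 °C shoots than in 22 °C shoots. In whole organs, fewer cells of a type and less RNA per cell cannot be told apart.

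A gene was tested if 2 or more columns of each organ, among all 16 samples, reached a value of 10, which 20721 genes did. Of these, 78 reached it only because the 22 °C root library or another identical column counted as 2. A gene was called when the Benjamini-Hochberg adjusted p from limma was below 0.05. The interaction is the root log2 difference (32 °C minus 22 °C) minus the shoot log2 difference, on log2(value + 1), so a negative value means that the root rose less, or fell more, than the shoot. It was called for 5890 genes, 28.4% of those tested. In 1649 genes (7.96%) the root response lay above the shoot response, and in 4241 genes (20.5%) it lay below. The number above was 1084 without replicate 2 of the 22 °C shoots and 2508 without replicate 3 of the gradient roots. At an unadjusted p below 0.05 the interaction passed for 8538 genes. Gene groups are read below against 20.5% below and 7.96% above, and against a median interaction of -0.17. The interaction was at least 1 in size, on the log2 scale, in 5061 genes (24.4%), and its standard error had a median of 0.27.

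The single responses behind these numbers leaned upward in both organs. In roots 7620 genes (36.8%) were higher at 32 °C and 2911 (14%) were lower. In shoots 10874 genes (52.5%) were higher and 2325 (11.2%) were lower. Counts of group members higher or lower in an organ are read below against these shares. This lean depended on scaling. With TMM factors, which rescale the libraries of an organ so that most genes show no change, the median change of all genes moved to -0.01 from 0.29 in roots, to 0.02 from 0.48 in shoots and to -0.02 from -0.17 for the interaction, all on the log2 scale. The counts then became 4739 higher and 5078 lower in roots, 6284 higher and 5722 lower in shoots, and 2660 above and 3440 below for the interaction. Group counts with TMM factors are read against these. The share of interaction calls with the root above the shoot was 28.0% as deposited and 43.6% with TMM factors. Changes smaller than these shifts are therefore read below only relative to them.

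The signs of the 2 responses matched for 14841 of the 20721 genes (71.6%). Values above 0 made up 64.2% of genes in roots and 75.0% in shoots, shares that alone would give 57.1% matching signs. With TMM factors, where values above 0 made up 49.7% in roots and 51.2% in shoots, the signs matched for 67.9%. Across genes the responses had a Pearson correlation of 0.53 and a Spearman correlation of 0.48, given as a description because genes share their libraries. Of 7744 genes called in both organs, 6890 went in 1 direction and 854 in opposite directions. Among those 6890, the interaction was called for 1248 and not called for 5642.

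**Figure D1:**
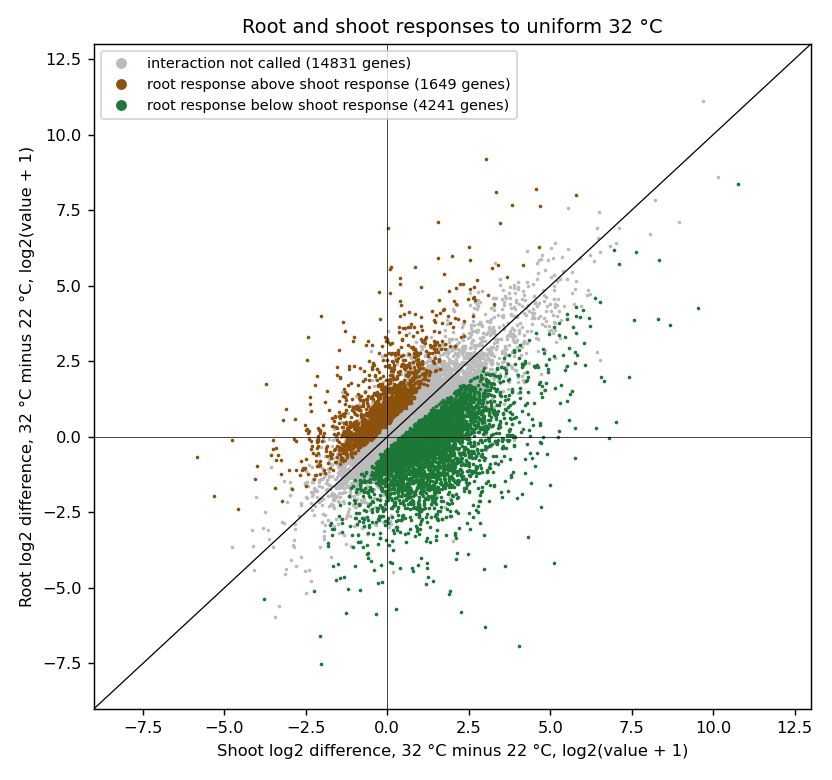
Each point is 1 of the 20721 genes tested, with the shoot log2 difference on the horizontal axis and the root log2 difference on the vertical axis, both 32 °C minus 22 °C on log2(value + 1). Brown points are the 1649 genes whose root response was called above the shoot response, green points the 4241 called below it, grey points the rest, and the diagonal marks equal responses.

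The genes with an interaction fell into classes by what each organ did. Where the root response lay below the shoot response, the commonest pattern was a call in shoots alone: 1972 genes were higher in 32 °C shoots and not called in roots. Another 720 genes were higher in both organs but more so in shoots, 689 were lower in roots and higher in shoots, 692 were lower in roots and not called in shoots, and 106 were lower in both but more so in roots. Where the root response lay above, 626 genes were higher in roots and not called in shoots, 412 were lower in shoots and not called in roots, 340 were higher in both but more so in roots, 165 were higher in roots and lower in shoots, and 82 were lower in both but more so in shoots. The 165 were 99 without replicate 2 of the 22 °C shoots and 265 without replicate 3 of the gradient roots. The remaining 86 genes with an interaction, 24 above and 62 below, were called in neither organ. An organ in which a gene was not called is not shown to be without a response. The larger of the 2 changes was in the shoot for 3499 genes (59.4%) and in the root for 2391 (40.6%). This split and the 1972 are given as deposited only, where 10874 genes were higher in shoots, against 6284 with TMM factors. The standard error was also larger for root changes (median 0.21) than for shoot changes (0.17). A root change of a given size was thus harder to call.

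**Figure D2:**
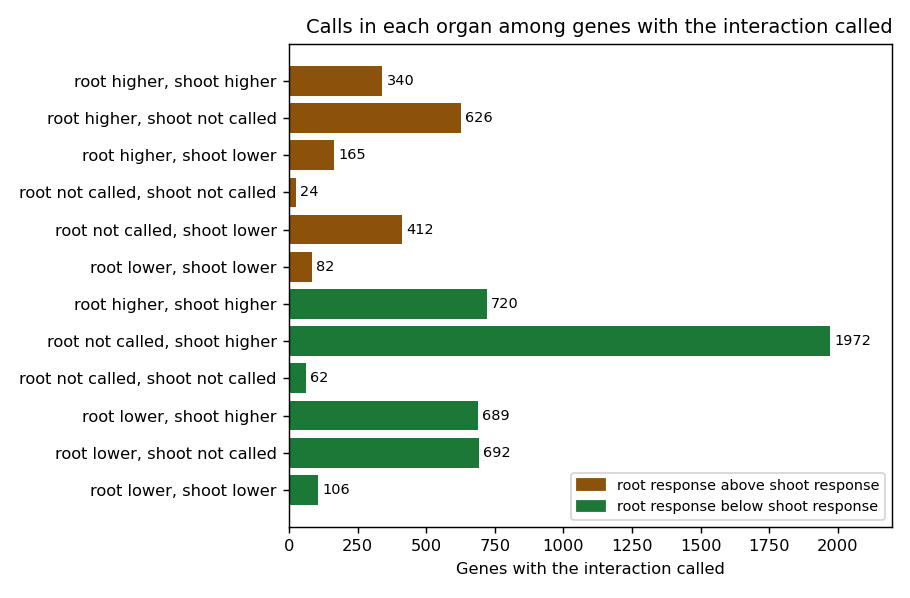
Bars give the number of genes with the interaction called, split by the call of the 32 °C against 22 °C comparison in roots and in shoots. The longest bar, 1972 genes as deposited, is the class higher in shoots and not called in roots.

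The organs also stood closer to each other at 32 °C than at 22 °C. The gap between the root and shoot means, in absolute log2 units, was smaller at 32 °C for 13027 of all 20721 genes (62.9%), with a median of 0.70 at 32 °C and 0.93 at 22 °C. Among the 5890 genes with an interaction it was smaller for 4360 (74.0%), with medians of 0.90 at 32 °C and 1.64 at 22 °C. The interaction is itself the change in the signed gap, and the 1 root library at 22 °C enters both. These genes were thus selected on what is described, and their share cannot add to that over all genes. More libraries were averaged at 32 °C than at 22 °C, which narrows a gap. With 1 root and 2 shoot libraries on both sides, the 9 possible choices at 32 °C gave 59.7% to 64.0% of all genes closer at 32 °C and median gaps of 0.67 to 0.74. With each gap centred on its median over genes the share was 66.1%. These shares are descriptions with no test.

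Small heat shock proteins hold unfolding proteins for refolding by other chaperones. All 12 cytosolic members were higher in 32 °C shoots and 10 of 12 were higher in 32 °C roots. The interaction was called for 3 of the 12, below 0 for 2 and above 0 for 1, beside 20.5% and 7.96% over all genes. It lay below 0, called or not, for 11, beside 12429 of all 20721 genes tested. The median change of the 12 was 3.63 in roots and 5.75 in shoots, beside 0.29 and 0.48 over all genes, and the median interaction was -1.12. The 2 called below were 4 without replicate 2 of the 22 °C shoots or with the 4 groups alone, 6 with identical columns kept separate and 8 with library weights.

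AT2G29500, annotated as an HSP20-like chaperone, had 7173, 8576 and 6269 normalised counts in 32 °C roots and 495 in the 22 °C root library, against 6792, 7693 and 7581 in 32 °C shoots and 39 and 36 in 22 °C shoots. The organs reached overlapping values at 32 °C, and they were apart at 22 °C, where the root value was the higher. The change was 14.7-fold in roots and 191-fold in shoots, an interaction of -3.70 ± 0.23 (SE, log2; adjusted p = 1.5e-06). HSP18.2 (AT5G59720) had 357, 472 and 431 in 32 °C roots and 63 in the 22 °C root library, against 2153, 2428 and 2113 in 32 °C shoots and 40 and 37 in 22 °C shoots. Here the shoots stood above the roots at 32 °C, and the interaction was -3.11 ± 0.22 (adjusted p = 4.73e-06). AT4G21870, also annotated as HSP20-like, went the other way: 32 °C roots held 93, 116 and 91 and the 22 °C root library 18, against 1584, 1291 and 1221 in 32 °C shoots and 663 and 695 in 22 °C shoots. It rose 5.28-fold in roots and 2-fold in shoots, an interaction of 1.40 ± 0.25 (adjusted p = 0.00168).

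Several other cytosolic members were nearly absent at 22 °C, and their organ difference was poorly resolved. HSP17.4 (AT3G46230) had 591, 795 and 349 in 32 °C roots and 3 in the 22 °C root library, against 945, 1001 and 684 in 32 °C shoots and 0 and 2 in 22 °C shoots. Its interaction was -1.87, with a 95% interval of -3.36 to -0.38 before adjustment, and the adjusted p was 0.0595. That estimate turned on single counts at 22 °C: it was -2.66 without replicate 2 of the 22 °C shoots (adjusted p = 0.00732), -1.07 without replicate 1 (adjusted p = 0.181) and -2.14 without replicate 2 of the 32 °C roots (adjusted p = 0.0402). It was -2.31 with a pseudocount of 0.5 and -0.95 with 8, and was called with library weights (adjusted p = 0.0049) and with identical columns kept separate (adjusted p = 0.0149).

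Of the 5 small heat shock proteins of mitochondria, chloroplasts and endoplasmic reticulum, 4 were tested and 3 had the smaller response in the root, with a median interaction of -2.32. Without replicate 1 of the 22 °C shoots 2 lay below and 1 above. AT5G51440, an HSP20-like chaperone, held 3529, 2993 and 2961 in 32 °C roots and 204 in the 22 °C root library, against 2001, 1884 and 1709 in 32 °C shoots and 27 and 22 in 22 °C shoots. The root values were the higher at both temperatures, while the change was 15.4-fold in roots and 73.4-fold in shoots, an interaction of -2.25 ± 0.32 (adjusted p = 0.000363). HSP22.0 (AT4G10250), of the endoplasmic reticulum, had 304, 495 and 239 in 32 °C roots and was listed at 0 in the 22 °C root library, against 3173, 3138 and 2708 in 32 °C shoots and 0 and 2 in 22 °C shoots. Its call below 0 (adjusted p = 0.0214) was lost without replicate 1 of the 22 °C shoots (adjusted p = 0.057) and with a pseudocount of 0.5 (adjusted p = 0.0962).

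HSP23.6 (AT4G25200), a mitochondrial member, had 2426, 2506 and 1826 in 32 °C roots and was also listed at 0 in the 22 °C root library, against 1529, 1580 and 1186 in 32 °C shoots and 0 and 2 in 22 °C shoots. At 32 °C it stood higher in roots, and at 22 °C it was near 0 in both organs. Its interaction was not called (1.44, adjusted p = 0.102), but without replicate 1 of the 22 °C shoots it was 2.24 (adjusted p = 0.00494) and without replicate 2 it was 0.65 (adjusted p = 0.34). It was 1.81 with a pseudocount of 0.5 and 0.81 with 8, and was called with library weights (adjusted p = 0.0126) and with identical columns kept separate (adjusted p = 0.0337). The chloroplast member HSP21 (AT4G27670) had too low values in roots to be tested, with 4, 4 and 2 in 32 °C roots and 0 in the 22 °C root library, against 159, 248 and 113 in 32 °C shoots and 0 and 0 in 22 °C shoots.

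The ATP-driven chaperones rose in both organs, and their organ difference was mostly modest. Of 20 HSP70, HSP90 and HSP100 genes, 18 were higher in 32 °C roots and 18 in 32 °C shoots. The root response lay below the shoot response for 6 and above it for 2, and the median interaction was -0.33. With TMM factors the number below was 4. The 2 above fell to 1 without replicate 1 of the 32 °C roots or replicate 2 or 3 of the 32 °C shoots, and to 0 without replicate 1 of the 22 °C shoots.

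Organelle members made up 5 of the 6 genes with the smaller root response: CPHSC70-1, CPHSC70-2, HSP90.5, MTHSC70-1 and MTHSC70-2. The chloroplast HSP70 CPHSC70-2 (AT5G49910) had 3542, 3224 and 3013 in 32 °C roots and 2066 in the 22 °C root library, against 8363, 8268 and 8191 in 32 °C shoots and 2161 and 2021 in 22 °C shoots. The organs were level at 22 °C and apart at 32 °C, an interaction of -1.33 ± 0.15 (adjusted p = 7.1e-05). HSP90.5 (AT2G04030), the HSP90 of plastids, changed 4.09-fold in roots and 8.93-fold in shoots (interaction -1.13 ± 0.16, adjusted p = 0.000378). MTHSC70-2 (AT5G09590), an HSP70 of mitochondria, changed 4.52-fold in roots and 7.61-fold in shoots (interaction -0.75 ± 0.14, adjusted p = 0.00205).

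The sixth was the heat-induced cytosolic HSP90.1 (AT5G52640). It reached 14044, 13582 and 10096 in 32 °C roots, with 637 in the 22 °C root library, and 11008, 10484 and 9019 in 32 °C shoots, with 207 and 160 in 22 °C shoots. Values at 32 °C overlapped between the organs, and the interaction was -1.51 ± 0.25 (adjusted p = 0.000927). HSP70 (AT3G12580), the main heat-induced cytosolic HSP70, had 23549, 19844 and 16568 in 32 °C roots and 1530 in the 22 °C root library, against 10721, 10354 and 7489 in 32 °C shoots and 794 and 443 in 22 °C shoots. It changed 12.9-fold in roots and 15.8-fold in shoots. The interaction of -0.29 had a 95% interval of -1.10 to 0.51 and was 0.13 without replicate 2 of the 22 °C shoots. For the disaggregase HSP101 (AT1G74310), which changed 2.52-fold in roots and 2.89-fold in shoots, the interval was -0.84 to 0.44.

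**Figure D3:**
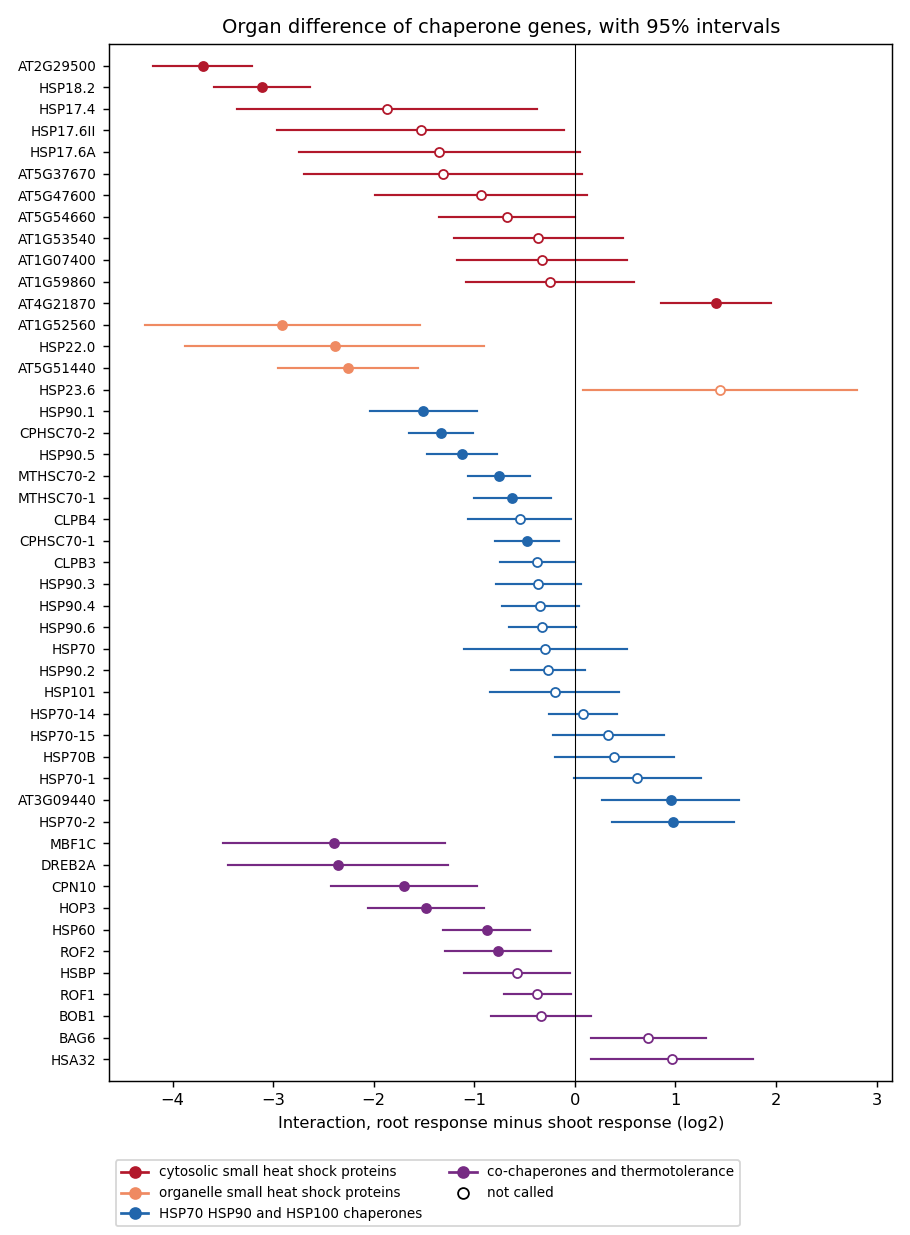
Points give the interaction (root response minus shoot response, log2) of each tested chaperone and thermotolerance gene, and lines its 95% interval before adjustment. Filled points were called. Most called points lie left of 0, and AT4G21870, HSP70-2 and AT3G09440 are the called points right of it.

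Heat shock factors showed smaller root responses for 6 of 18 tested members and a larger one for 1, with a median interaction of -0.20. The number below was 3 without replicate 2 of the 22 °C shoots. HSFB1 (AT4G36990), a factor that represses as well as supports heat shock genes, had 6472, 6869 and 5942 in 32 °C roots and 6111 in the 22 °C root library, against 1785, 2017 and 1875 in 32 °C shoots and 787 and 545 in 22 °C shoots. Root values overlapped between temperatures while shoot values rose 2.88-fold (interaction -1.46 ± 0.24, adjusted p = 0.00102). HSFA1E (AT3G02990), one of the master regulators of the response, fell to 167, 186 and 233 in 32 °C roots, against 434 in the 22 °C root library. In shoots it held 143, 123 and 115 at 32 °C against 136 and 137 at 22 °C, which was not called as deposited and lower with TMM factors. Its interaction was -1.05 ± 0.27 (adjusted p = 0.012).

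HSFA3 (AT5G03720), which drives chaperones during longer heat, was the factor with the larger root response. It had 251, 287 and 247 in 32 °C roots and 45 in the 22 °C root library, against 667, 556 and 643 in 32 °C shoots and 256 and 216 in 22 °C shoots, an interaction of 1.12 ± 0.23 (adjusted p = 0.00406). HSFA2 (AT2G26150), the strongly heat-induced factor that prolongs thermotolerance, rose 12.4-fold in roots and 9.39-fold in shoots. Its interaction of 0.40 had a 95% interval of -1.03 to 1.84, and it was -0.39 without replicate 1 of the 22 °C shoots.

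Co-chaperones and thermotolerance regulators had 6 of 11 members with the smaller response in the root and none with the larger, with a median interaction of -0.77. With TMM factors or with the replicate number as a block 2 lay above, as they did without replicate 3 of the 32 °C roots, and 1 lay above without replicate 1 or 3 of the gradient roots. MBF1C (AT3G24500), a coactivator needed for thermotolerance, had 603, 572 and 363 in 32 °C roots and 638 in the 22 °C root library, against 1166, 929 and 636 in 32 °C shoots and 237 and 192 in 22 °C shoots. It was not called in roots and rose 4.13-fold in shoots (interaction -2.39 ± 0.51, adjusted p = 0.00456). DREB2A (AT5G05410), a transcription factor of drought and heat, fell 7.48-fold in roots, to 143, 211 and 196 at 32 °C against 1359 at 22 °C. Its shoot values of 123, 105 and 102 at 32 °C overlapped the 261 and 99 at 22 °C and were lower only with TMM factors (interaction -2.35 ± 0.50, adjusted p = 0.00469).

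HOP3 (AT4G12400), which links HSP70 to HSP90, changed 13.7-fold in roots and 38.3-fold in shoots. The mitochondrial chaperonins HSP60 (AT3G23990) and CPN10 (AT1G14980) form the cage in which imported proteins fold. HSP60 changed 2.75-fold in roots and 5.05-fold in shoots (interaction -0.88 ± 0.20, adjusted p = 0.00655). CPN10 changed 1.79-fold in roots, which was not called with TMM factors, and 5.79-fold in shoots (interaction -1.70 ± 0.33, adjusted p = 0.00301).

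Genes of the unfolded protein response, which raises the folding capacity of the endoplasmic reticulum, mostly rose in both organs. Of 16 tested, 12 were higher in 32 °C roots and 14 in 32 °C shoots, and 8 had the smaller response in the root with none the larger (median interaction -0.62). BIP1 (AT5G28540), a lumenal HSP70, had 21189, 18962 and 21488 in 32 °C roots and 6945 in the 22 °C root library, against 14965, 14530 and 14750 in 32 °C shoots and 2331 and 2682 in 22 °C shoots. Its interaction was -1.0 ± 0.16 (adjusted p = 0.001), and that of its near-identical copy BIP2 (AT5G42020) was -1.20 ± 0.18 (adjusted p = 0.000561). Reads shared by such copies may have been split between them, so their single values are uncertain. The lumenal J-protein ERDJ3B (AT3G62600) rose 3.89-fold in roots and 7.36-fold in shoots (interaction -0.92 ± 0.18, adjusted p = 0.00332), and the lectin chaperone CNX1 (AT5G61790) 2.56-fold in roots and 4.27-fold in shoots (interaction -0.74 ± 0.17, adjusted p = 0.00612).

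Genes of thermomorphogenesis and auxin moved both ways in roots. Of 19 tested, 8 were higher and 7 lower in 32 °C roots, and 8 were higher and 1 lower in 32 °C shoots. With TMM factors 1 was higher and 8 were lower in roots, and 1 was higher and 4 were lower in shoots. The root response lay below the shoot response for 8 and above it for 2, with a median interaction of -0.30. The 2 above became 4 with TMM factors and 5 without replicate 3 of the gradient roots. PIF4 (AT2G43010), the central factor of warm-induced elongation, had 3, 9 and 10 in 32 °C roots and 110 in the 22 °C root library, against 5769, 5590 and 4692 in 32 °C shoots and 7667 and 8598 in 22 °C shoots. It fell 14.6-fold in roots from an already low level and was not called in shoots (interaction -3.26 ± 0.81, adjusted p = 0.0105). Its homologue PIF5 (AT3G59060) had 14, 18 and 15 in 32 °C roots and 89 in the 22 °C root library, against 8554, 7808 and 7061 in 32 °C shoots and 8892 and 10599 in 22 °C shoots, where it was not called as deposited and lower with TMM factors (interaction -2.12 ± 0.37, adjusted p = 0.00135).

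Some genes of this group were called in opposite directions. HFR1 (AT1G02340), which restrains the PIFs, had 177, 209 and 118 in 32 °C roots and 468 in the 22 °C root library, against 3791, 3625 and 3435 in 32 °C shoots and 2161 and 2041 in 22 °C shoots. HB-2 (AT4G16780), a homeobox factor of shade growth, fell 1.64-fold in roots and rose 1.6-fold in shoots. Both shoot rises were not called with TMM factors, while the interactions of -2.29 ± 0.30 (adjusted p = 0.000204) and -1.39 ± 0.23 (adjusted p = 0.000938) were. HY5 (AT5G11260), the factor that promotes light development and opposes PIF4, had 499, 550 and 593 in 32 °C roots and 1441 in the 22 °C root library, against 166, 192 and 164 in 32 °C shoots and 198 and 142 in 22 °C shoots. The shoot groups overlapped (lower with TMM factors), and the interaction was -1.45 ± 0.29 (adjusted p = 0.003).

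The cell wall enzyme XTH15 (AT4G14130) showed the reverse order. Its values were 1929, 1263 and 2027 in 32 °C roots and 2562 in the 22 °C root library, against 937, 646 and 875 in 32 °C shoots and 8973 and 10155 in 22 °C shoots. The shoot fell 11.8-fold, the root was not called (lower with TMM factors), and the interaction was 2.97 ± 0.35 (adjusted p = 0.000102). SAUR20 (AT5G18020), of an auxin-induced growth family with near-identical members, held 0, 1 and 1 in 32 °C roots and 10 in the 22 °C root library, against 745, 692 and 817 in 32 °C shoots and 355 and 369 in 22 °C shoots, a shoot rise not called with TMM factors. Its interaction (-3.84 ± 0.58, adjusted p = 0.000596) was -2.09 with a pseudocount of 8, and SAUR20 was tested only because the 22 °C root library stands in 2 columns. Its relatives SAUR19, SAUR21, SAUR22, SAUR23 and SAUR24 were too low in roots to be tested. They held 0 to 13 in 32 °C roots and 0 to 4 in the 22 °C root library, so no root fall can be read for them. The auxin synthesis gene YUC8 (AT4G28720) changed 1.61-fold in roots and 1.51-fold in shoots, neither called with TMM factors. Its interaction of 0.09 had a 95% interval of -0.52 to 0.69, and was -0.17 without replicate 1 of the 22 °C shoots and -0.07 without replicate 2 of the 32 °C shoots.

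Most cold-regulated genes fell in roots. Of 11 tested, 8 were lower in 32 °C roots and 5 in 32 °C shoots, with none higher in either. The shoot counts turned on single libraries: 1 was lower and 3 were higher without replicate 1 of the 22 °C shoots, and 2 or 3 were lower without replicate 1 or 2 of the 32 °C shoots. The median interaction was -1.55, and it was called below 0 for 3, a number that rose to 7 without replicate 1 of the 22 °C shoots and to 5 without replicate 3 of the 32 °C roots. COR413-PM1 (AT2G15970), a membrane protein of cold acclimation, had 3994, 3425 and 4094 in 32 °C roots and 27146 in the 22 °C root library, against 5153, 4817 and 5982 in 32 °C shoots and 7136 and 6234 in 22 °C shoots. It fell 7.09-fold in roots and 1.26-fold in shoots (interaction -2.49 ± 0.20, adjusted p = 1.22e-05).

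The dehydrins ERD10 (AT1G20450) and COR47 (AT1G20440), which protect membranes against freezing and drying, fell 3.33-fold and 2.39-fold in roots. In shoots neither was called as deposited, and COR47 was lower with TMM factors (interactions -2.24 ± 0.45, adjusted p = 0.00344, and -1.0 ± 0.22, adjusted p = 0.00626). The cold regulator CBF1 (AT4G25490) passed the filter on low values only because the 22 °C root library stands in 2 columns. For it, 32 °C roots held 2, 2 and 4 and the 22 °C root library 81, against 19, 9 and 40 in 32 °C shoots and 264 and 120 in 22 °C shoots. It fell in both organs. Its interaction of -1.38 had a 95% interval of -3.47 to 0.72, and was -0.33 with a pseudocount of 8, -0.81 without replicate 2 of the 22 °C shoots and -0.86 without replicate 3 of the 32 °C shoots.

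Abscisic acid response genes parted between the organs. Of 15 tested, 12 had the root response below the shoot response and none above. The number below fell and the number above rose without replicate 2 of the 22 °C shoots. The median interaction was -1.35. In roots 7 were lower and 1 higher at 32 °C, beside 14% and 36.8% over all genes. In shoots 1 was lower and 11 were higher, beside 11.2% and 52.5%. With TMM factors these became 11 lower and 0 higher in roots, and 2 lower and 7 higher in shoots, and the interaction of the same 12 genes was called below 0. Without replicate 2 of the 22 °C shoots 7 were higher in shoots.

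RAB18 (AT5G66400), an abscisic acid induced dehydrin, had 8, 10 and 7 in 32 °C roots and 165 in the 22 °C root library, against 963, 1266 and 1110 in 32 °C shoots and 485 and 461 in 22 °C shoots. It fell 17.9-fold in roots and rose 2.34-fold in shoots (interaction -5.39 ± 0.35, adjusted p = 2.82e-06). P5CS1 (AT2G39800), the main enzyme of stress-induced proline synthesis, had 2503, 2536 and 2722 in 32 °C roots and 6087 in the 22 °C root library, against 7811, 11615 and 9834 in 32 °C shoots and 3835 and 2344 in 22 °C shoots. The order of the organs thus turned round with temperature (interaction -2.92 ± 0.31, adjusted p = 5.59e-05). NCED3 (AT3G14440), which makes the hormone's precursor, fell 2.44-fold in roots and rose 1.41-fold in shoots, the rise not being called with TMM factors (interaction -1.78 ± 0.27, adjusted p = 0.00057).

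RD29B (AT5G52300), a hormone-responsive stress gene, was not called in roots as deposited, where it was lower with TMM factors, and rose 9.58-fold in shoots (interaction -4.90 ± 0.90, adjusted p = 0.0019). RD22 (AT5G25610), a drought-induced BURP-domain gene, fell 1.7-fold in roots and rose 1.76-fold in shoots (interaction -1.58 ± 0.22, adjusted p = 0.000342). RD26 (AT4G27410), a NAC transcription factor of the same response, fell in both organs, to 369, 394 and 423 in 32 °C roots against 3012 in the 22 °C root library, and to 294, 364 and 324 in 32 °C shoots against 1110 and 1088 in 22 °C shoots. The fall was the larger in roots (interaction -1.18 ± 0.20, adjusted p = 0.00137).

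**Figure D4:**
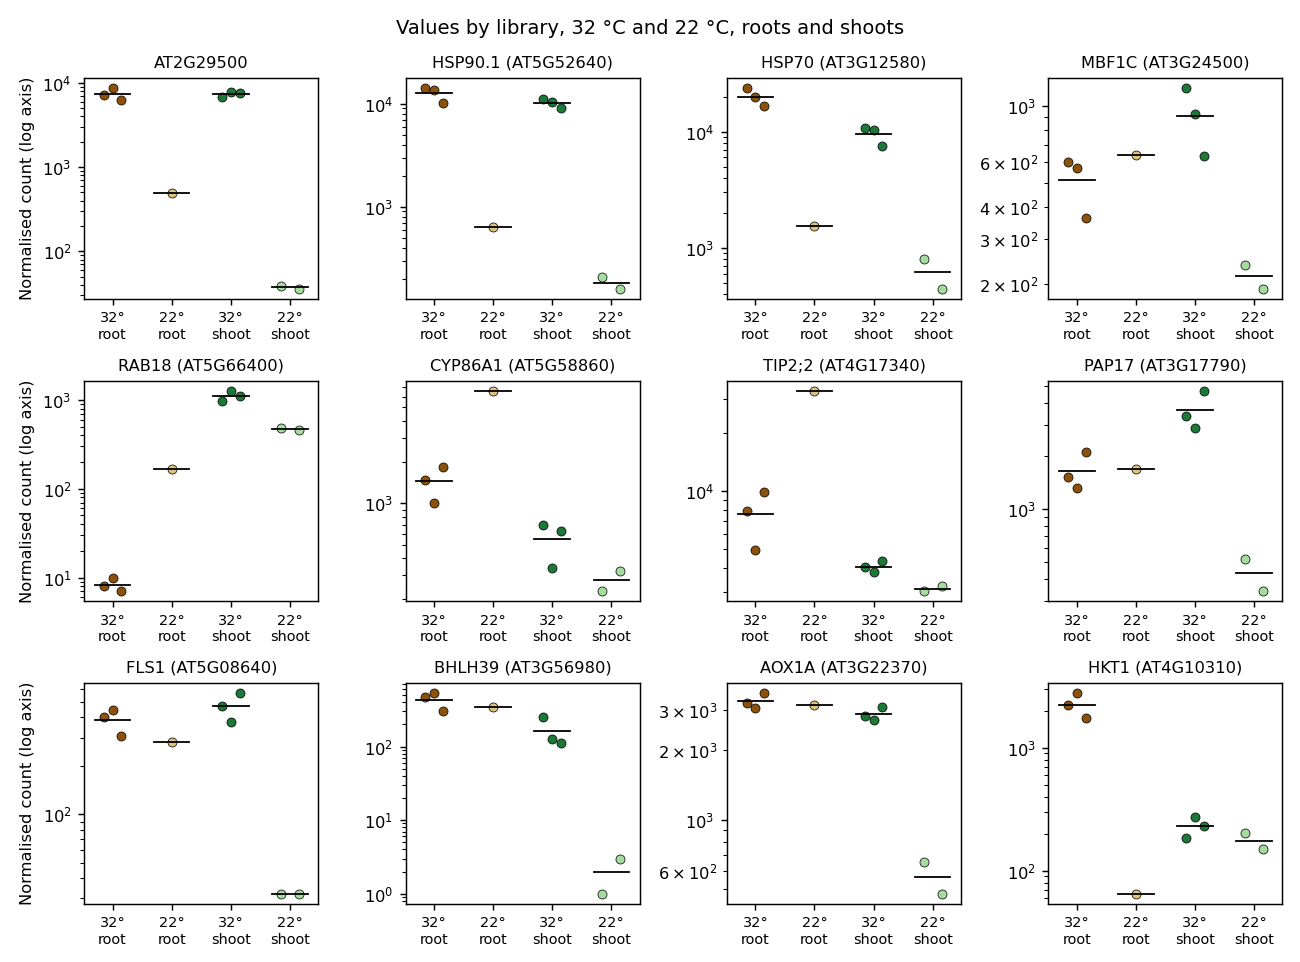
Normalised counts on a log axis for 12 genes, with 1 point per library, horizontal lines at group means, and groups in the order 32 °C roots, 22 °C roots, 32 °C shoots and 22 °C shoots. AT2G29500 and HSP90.1 overlap between the organs at 32 °C, RAB18 falls in roots and rises in shoots, and HKT1 changes in roots with overlapping shoot groups.

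Aquaporins, the water channels of the plasma membrane and the vacuole, mostly fell in roots. Of 20 tested, 16 were lower and 1 was higher in 32 °C roots, while in 32 °C shoots 8 were lower and 5 higher. With TMM factors the shoot counts were 11 lower and 2 higher. Only 3 were higher in shoots with equal totals, with the replicate block, or without replicate 2 of the 22 °C shoots or any 1 of the 32 °C shoots, and 5 were lower without replicate 2 of the 22 °C shoots. The root response lay below the shoot response for 10 and above it for 1 (median interaction -0.57). The vacuolar TIP2;2 (AT4G17340) had 7905, 4946 and 9965 in 32 °C roots and 33179 in the 22 °C root library, against 4046, 3799 and 4361 in 32 °C shoots and 3034 and 3220 in 22 °C shoots. It fell 4.54-fold in roots and was not called in shoots (interaction -2.56 ± 0.37, adjusted p = 0.000453). Its relative TIP2;3 (AT5G47450) fell 10.1-fold in roots, to 1641, 853 and 2496 against 15394, with overlapping shoot groups (interaction -3.11 ± 0.61, adjusted p = 0.00301).

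TIP1;1 (AT2G36830), an abundant vacuolar channel, fell 2.18-fold in roots and rose 1.37-fold in shoots, the shoot rise not being called with TMM factors (interaction -1.57 ± 0.27, adjusted p = 0.00143). The plasma membrane channel PIP2;3 (AT2G37180) fell 1.62-fold in roots and rose 2.03-fold in shoots (interaction -1.72 ± 0.27, adjusted p = 0.000807). PIP2;5 (AT3G54820) was the exception, with 628, 838 and 722 in 32 °C roots and 141 in the 22 °C root library, against 443, 575 and 572 in 32 °C shoots and 291 and 256 in 22 °C shoots. It rose in both organs and more in roots (interaction 1.41 ± 0.27, adjusted p = 0.00251).

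Suberin, the fatty polyester that seals the endodermis, gave an almost one-sided group. Of 13 genes tested, 10 were lower in 32 °C roots, beside 14% over all genes, and 10 were higher in 32 °C shoots, beside 52.5%. The interaction was called below 0 for 11 and above 0 for none. Both interaction counts were the same under TMM factors, the replicate block and each library that could be left out. The 22 °C root library, on which every root response rests, could not be left out. How far the counts depend on that library was therefore not tested. With TMM factors 6 rather than 10 genes were higher in shoots. The list median was -2.84 for the interaction, beside -0.17 over all genes.

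CYP86A1 (AT5G58860), which adds the terminal hydroxyl group of suberin acids, had 1484, 1014 and 1844 in 32 °C roots and 6591 in the 22 °C root library, against 693, 336 and 627 in 32 °C shoots and 229 and 324 in 22 °C shoots. The shoot rise was not called with TMM factors, and the interaction was -3.18 ± 0.49 (adjusted p = 0.000643). KCS2 (AT1G04220), an enzyme that lengthens the acids, had 892, 830 and 910 in 32 °C roots and 2088 in the 22 °C root library, against 368, 208 and 242 in 32 °C shoots and 69 and 42 in 22 °C shoots (interaction -3.53 ± 0.42, adjusted p = 0.000116). ABCG6 (AT5G13580), an exporter of suberin building blocks, fell 4.31-fold in roots and rose 2.59-fold in shoots (interaction -3.48 ± 0.43, adjusted p = 0.000153).

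FAR5 (AT3G44550), which makes suberin alcohols, fell 6.08-fold in roots and rose 1.38-fold in shoots, the rise not being called with TMM factors (interaction -3.07 ± 0.30, adjusted p = 3.34e-05). LACS2 (AT1G49430), an acyl-CoA synthetase of cutin and suberin, fell 2.68-fold in roots and rose 2.84-fold in shoots (interaction -2.93 ± 0.31, adjusted p = 5.57e-05). FAR1 (AT5G22500) differed from FAR5. It was not called in roots and rose 1.86-fold in shoots (not called with TMM factors), and the 95% interval of its interaction ran from -1.14 to 0.28.

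Markers of root tissue moved beside these groups. Of 10 markers, 7 had the interaction called below 0 and none above (median -1.75), a number that was 3 without replicate 2 of the 22 °C shoots. Their summed values were 458718 to 597052 in 32 °C roots and 388714 in the 22 °C root library, against 203331 to 315892 in 32 °C shoots and 56398 and 63454 in 22 °C shoots, with all 10 above 0 in every library. Most of each sum was PYK10 (AT3G09260), a glucosidase of endoplasmic reticulum bodies, at 296137, 201170 and 313051 in 32 °C shoots against 61748 and 55170 in 22 °C shoots. Its interaction of -1.71 (adjusted p = 0.0242) was not called with TMM factors (-1.56, adjusted p = 0.0665), with the replicate block (-1.58, adjusted p = 0.0565), with no filter on low values (adjusted p = 0.0677), or without replicate 1 of the 32 °C roots, replicate 2 of the 22 °C shoots or replicate 1 or 3 of the 32 °C shoots (adjusted p = 0.051 to 0.075).

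The root hair expansin EXPA7 (AT1G12560) had 412, 164 and 630 in 32 °C roots and 727 in the 22 °C root library, against 103, 48 and 77 in 32 °C shoots and 8 and 13 in 22 °C shoots. Its rise in shoots was 6.55-fold (interaction -3.77 ± 0.76, adjusted p = 0.00333). The endodermal CASP1 (AT2G36100), which builds the Casparian strip, had 3138, 1794 and 4305 in 32 °C roots and 11516 in the 22 °C root library, against 555, 369 and 370 in 32 °C shoots and 503 and 330 in 22 °C shoots. CASP1 fell in roots while its shoot groups overlapped (interaction -2.05 ± 0.50, adjusted p = 0.00962). None of the 5 CASP genes nor the root tip auxin carrier PIN2 (AT5G57090) was called in shoots as deposited, and PIN2 was lower there with TMM factors. The part of tissue composition in the suberin and aquaporin results was not tested.

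Phosphate starvation genes, which scavenge and take up phosphate when it is scarce, mostly rose in shoots. Of 23 tested, 11 were higher in 32 °C roots and 21 in 32 °C shoots. The interaction had a median of -1.29 and was called below 0 for 11 and above 0 for none. With TMM factors 5 rather than 11 were higher in roots. The 11 with the interaction called fell to 5 with TMM factors and to 5 without replicate 1 or 2 of the 32 °C roots. They were 6 without replicate 2 of the 22 °C shoots or replicate 1 or 3 of the 32 °C shoots. Without replicate 1 of the 22 °C shoots they were 7, and without replicate 3 of the 32 °C roots they rose to 15.

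PAP17 (AT3G17790), a purple acid phosphatase, had 1520, 1322 and 2117 in 32 °C roots and 1678 in the 22 °C root library, against 3396, 2903 and 4709 in 32 °C shoots and 519 and 339 in 22 °C shoots. Root groups overlapped, and shoots rose 8.55-fold (interaction -3.15 ± 0.48, adjusted p = 0.000562). PS2 (AT1G73010), a pyrophosphatase, had 641, 629 and 2457 in 32 °C roots and 253 in the 22 °C root library, against 3283, 2981 and 6288 in 32 °C shoots and 48 and 35 in 22 °C shoots. In both organs replicate 3 was the highest at 32 °C. The root rise was not called with TMM factors, and the interaction was -4.58 ± 0.82 (adjusted p = 0.00163).

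The RNA-degrading enzyme RNS1 (AT2G02990) had overlapping root groups and 466, 654 and 1943 in 32 °C shoots against 13 and 6 in 22 °C shoots (interaction -6.10 ± 1.25, adjusted p = 0.00379). The phospholipase NPC4 (AT3G03530), which frees phosphate from membrane lipids, also overlapped in roots and rose 10.4-fold in shoots (interaction -3.61 ± 0.71, adjusted p = 0.00302). The transporter PHT1;1 (AT5G43350), a near-identical copy of a neighbour and so uncertain, rose 3.01-fold in roots and 4.2-fold in shoots. The 95% interval of its interaction was -1.21 to 0.26.

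Iron deficiency genes include regulators and transporters of iron uptake. The list also held iron storage genes, and the counts take both kinds together. Of 17 iron genes tested, 4 were higher and 2 lower in 32 °C roots, and 12 were higher and 2 lower in 32 °C shoots. Over all genes 36.8% were higher and 14% lower in roots, and 52.5% were higher and 11.2% lower in shoots. With a median of -0.84, the interaction was called below 0 for 9 and above 0 for 1, the call above 0 being lost without replicate 3 of the 32 °C roots, replicate 1 of the 22 °C shoots or replicate 1 or 2 of the 32 °C shoots. BHLH39 (AT3G56980), which pairs with FIT to switch on iron uptake, had 471, 527 and 304 in 32 °C roots and 341 in the 22 °C root library, against 252, 128 and 113 in 32 °C shoots and 1 and 3 in 22 °C shoots. Root groups overlapped, and the interaction was -5.47 ± 0.72 (adjusted p = 0.000234). Its homologue BHLH38 (AT3G56970) had 169, 160 and 128 in 32 °C roots and 45 in the 22 °C root library, against 255, 150 and 129 in 32 °C shoots and 2 and 5 in 22 °C shoots (interaction -3.61 ± 0.63, adjusted p = 0.00143). BHLH101 (AT5G04150), of the same subgroup, fell to 11, 14 and 10 in 32 °C roots against 99 in the 22 °C root library, and had 136, 57 and 48 in 32 °C shoots against 22 and 36 in 22 °C shoots, a rise not called with TMM factors (interaction -4.32 ± 0.70, adjusted p = 0.000909).

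Glucosinolates are sulfur-rich defence compounds, and their synthesis genes rose in both organs. Of 20 tested, 18 were higher in 32 °C roots and 19 in 32 °C shoots. The root response lay below for 7 and above for 3, or for 5 without replicate 1 of the gradient roots (median interaction -0.52). CYP79B2 (AT4G39950), the entry enzyme of indole glucosinolates, had 10094, 11256 and 12199 in 32 °C roots and 7788 in the 22 °C root library, against 3895, 4941 and 6111 in 32 °C shoots and 1179 and 942 in 22 °C shoots. It was not called in roots and rose 4.65-fold in shoots (interaction -1.70 ± 0.33, adjusted p = 0.00298). SOT17 (AT1G18590), a sulfotransferase of the last core step, rose 2.32-fold in roots and 6.13-fold in shoots (interaction -1.40 ± 0.27, adjusted p = 0.00243). MAM3 (AT5G23020), which lengthens the methionine chain of aliphatic glucosinolates, showed the reverse, with 8027, 9095 and 9749 in 32 °C roots and 985 in the 22 °C root library, against 1293, 1204 and 1119 in 32 °C shoots and 378 and 370 in 22 °C shoots. It rose 9.06-fold in roots and 3.21-fold in shoots (interaction 1.5 ± 0.30, adjusted p = 0.00334).

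Flavonoid synthesis genes rose in shoots and mostly less in roots. Of 19 listed genes 11 were tested, of which 10 were higher in 32 °C shoots and 4 in 32 °C roots, and the interaction was called below 0 for 8 and above 0 for none (median -1.93). FLS1 (AT5G08640), which makes flavonols, had 402, 445 and 307 in 32 °C roots and 281 in the 22 °C root library, against 472, 377 and 565 in 32 °C shoots and 32 in each 22 °C shoot library. The organs overlapped at 32 °C (interaction -3.39 ± 0.39, adjusted p = 9.06e-05). CHIL (AT5G05270), a helper of chalcone synthase, was not called in roots and rose 5.88-fold in shoots (interaction -2.40 ± 0.39, adjusted p = 0.00087). UGT78D2 (AT5G17050), which adds glucose to flavonoids, was not called in roots, or lower there with TMM factors, and rose 3.28-fold in shoots (interaction -1.93 ± 0.20, adjusted p = 4.89e-05).

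TT4 (AT5G13930), chalcone synthase, rose in both organs, to 3781, 4130 and 2034 in 32 °C roots against 149 in the 22 °C root library and to 10808, 9091 and 12803 in 32 °C shoots against 196 and 209 in 22 °C shoots. Its interaction of -1.33 was not called (adjusted p = 0.101). It was called without replicate 1 of the gradient roots (adjusted p = 0.0245), with library weights (adjusted p = 0.0126), with the 4 groups alone (adjusted p = 0.0474) and with identical columns kept separate (adjusted p = 0.0333). The late anthocyanin genes DFR and MYB75 were too low in roots to be tested. DFR (AT5G42800), the first anthocyanin-specific enzyme, held 0, 0 and 0 in 32 °C roots and 1 in the 22 °C root library, against 338, 449 and 458 in 32 °C shoots and 12 and 19 in 22 °C shoots. The anthocyanin regulator MYB75 (AT1G56650) held 0, 1 and 0 in 32 °C roots and 1 in the 22 °C root library, against 373, 361 and 445 in 32 °C shoots and 6 and 3 in 22 °C shoots.

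**Figure D5:**
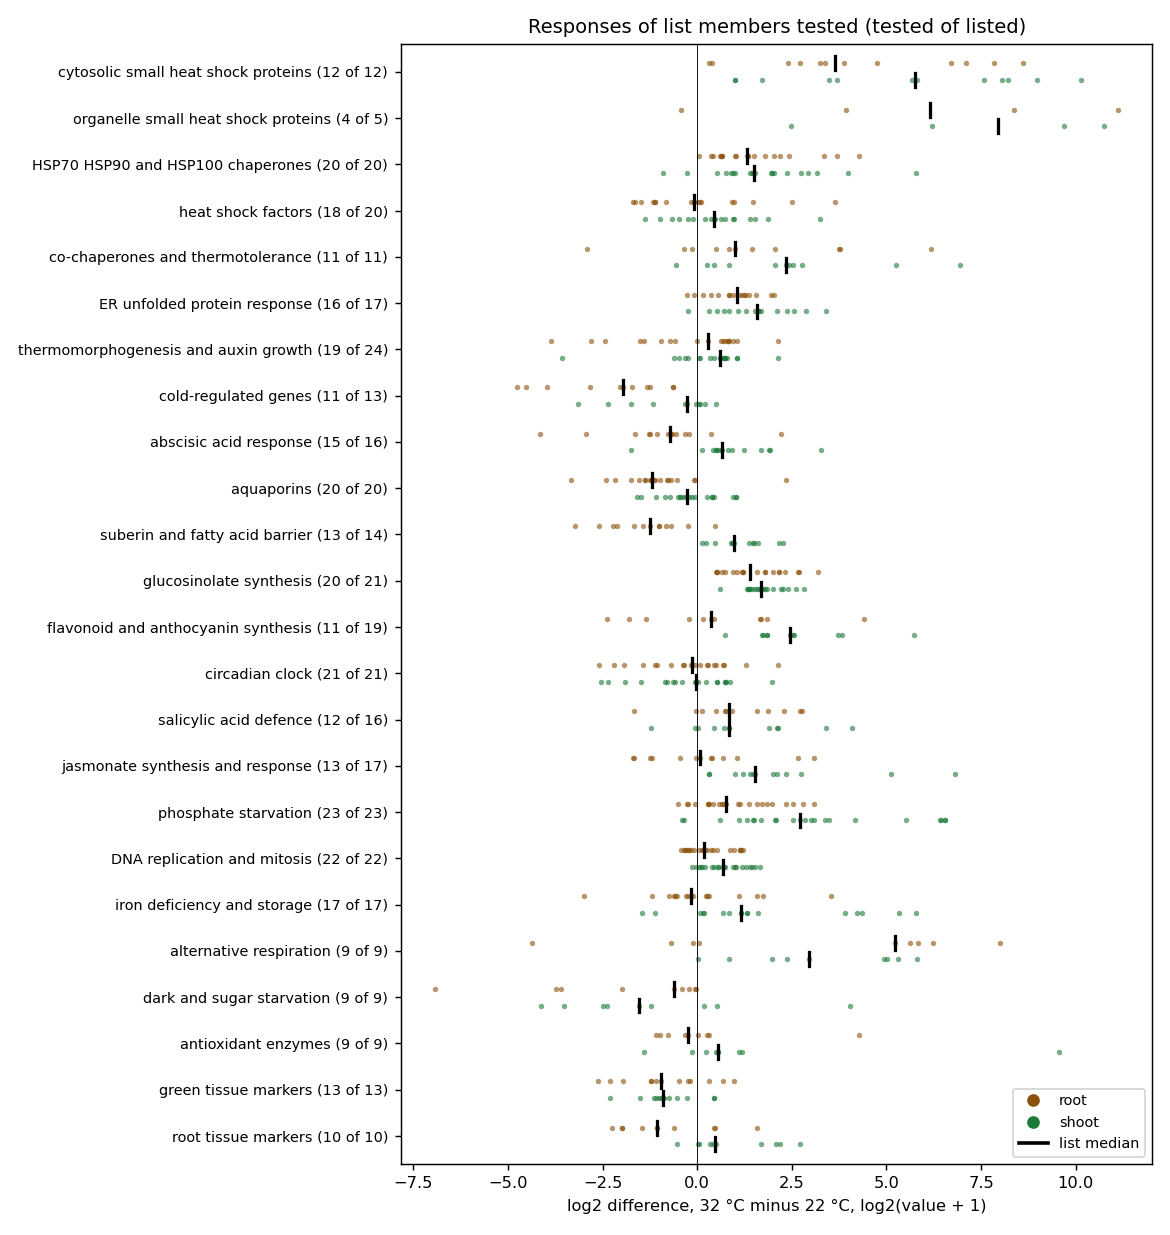
Log2 differences (32 °C minus 22 °C) of the tested members of 24 gene lists, with roots in brown above shoots in green and black ticks at list medians; labels give the number tested of the number listed. The suberin ticks lie on opposite sides of 0 (-1.25 in roots, 0.96 in shoots), and those of the cytosolic small heat shock proteins at 3.63 in roots and 5.75 in shoots.

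Jasmonate genes serve wound and insect defence. Of 13 tested, 7 had the root response below the shoot response and none above (median interaction -1.92). Without replicate 2 of the 22 °C shoots the number below fell and the number above rose. Without replicate 1 of them the number below rose. LOX2, MYC2, THI2.1 and PDF1.2 did not pass the filter on low values. AOC2 (AT3G25770), an enzyme of jasmonate synthesis, had 53, 44 and 41 in 32 °C roots and 105 in the 22 °C root library, against 5993, 4989 and 7929 in 32 °C shoots and 1275 and 669 in 22 °C shoots (interaction -3.92 ± 0.45, adjusted p = 9.06e-05). VSP2 (AT5G24770), a storage protein used as a readout of the hormone and close in sequence to VSP1, rose 6.38-fold in roots and 34.7-fold in shoots (interaction -2.44 ± 0.52, adjusted p = 0.00471). The repressor JAZ9 (AT1G70700) fell 3.22-fold in roots with overlapping shoot groups (interaction -2.01 ± 0.31, adjusted p = 0.00062). TAT3 (AT2G24850), a jasmonate-induced aminotransferase, varied widely, with 41, 19 and 105 in 32 °C roots and 45 in the 22 °C root library, against 227, 1586 and 625 in 32 °C shoots and 9 and 2 in 22 °C shoots (interaction -6.84 ± 1.37, adjusted p = 0.00322).

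Salicylic acid defence genes had interactions on both sides of 0. Of 12 tested, the root response lay above for 3 and below for 2, or below for 1 without replicate 2 of the 22 °C shoots or replicate 2 or 3 of the 32 °C shoots (median interaction 0.04). SARD1 (AT1G73805), a regulator of salicylic acid synthesis, rose 6.81-fold in roots and 1.8-fold in shoots, the shoot groups overlapping and the shoot change not being called with TMM factors (interaction 1.92 ± 0.47, adjusted p = 0.0103). SAG101 (AT5G14930), a partner of EDS1 in immunity, had 576, 675 and 759 in 32 °C roots and 224 in the 22 °C root library, against 775, 764 and 1000 in 32 °C shoots and 860 and 783 in 22 °C shoots. Its shoot groups overlapped (lower with TMM factors), and the interaction was 1.53 ± 0.25 (adjusted p = 0.000953).

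Circadian clock genes had interactions on both sides of 0. Of 21 genes tested, the root response lay below the shoot response for 6 and above it for 4, which became 4 below and 6 above with TMM factors (median interaction 0.27 as deposited). The morning factor LHY (AT1G01060) had 358, 384 and 448 in 32 °C roots and 1513 in the 22 °C root library, against 1505, 1428 and 1534 in 32 °C shoots and 1042 and 1048 in 22 °C shoots (interaction -2.44 ± 0.20, adjusted p = 1.22e-05). RVE8 (AT3G09600), an activator expressed in the day's first part, fell 2.18-fold in roots and rose 1.45-fold in shoots (interaction -1.65 ± 0.17, adjusted p = 4.96e-05). Both shoot rises were not called with TMM factors. PRR5 (AT5G24470), a repressor of the morning factors, fell in both organs and more in shoots, with 862, 917 and 983 in 32 °C roots and 1934 in the 22 °C root library, against 252, 276 and 309 in 32 °C shoots and 1391 and 1930 in 22 °C shoots (interaction 1.48 ± 0.24, adjusted p = 0.000836). FKF1 (AT1G68050), a blue-light receptor of flowering time, was not called in roots and fell 2.79-fold in shoots (interaction 2.16 ± 0.38, adjusted p = 0.00158).

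Alternative respiration bypasses the energy-conserving steps of the mitochondrial chain. Of 9 genes tested, the root response lay below the shoot response for 4 and above it for 2, which fell to 1 without replicate 1 or 3 of the 32 °C roots, replicate 1 of the 22 °C shoots or replicate 1 or 3 of the 32 °C shoots. The median interaction was -0.07 as deposited and 0.08 with TMM factors. The alternative oxidase AOX1A (AT3G22370) had 3202, 3053 and 3541 in 32 °C roots and 3161 in the 22 °C root library, against 2837, 2699 and 3080 in 32 °C shoots and 654 and 476 in 22 °C shoots. The root groups overlapped, and the 32 °C shoots overlapped them at the lower edge (interaction -2.32 ± 0.20, adjusted p = 1.63e-05). The external dehydrogenase NDB2 (AT4G05020) likewise overlapped in roots and rose 3.94-fold in shoots (interaction -2.10 ± 0.27, adjusted p = 0.000228). The internal dehydrogenase NDA1 (AT1G07180) had 267, 227 and 247 in 32 °C roots and 4 in the 22 °C root library, against 1743, 1563 and 1934 in 32 °C shoots and 997 and 943 in 22 °C shoots, a shoot rise not called with TMM factors (interaction 4.79 ± 0.38, adjusted p = 1.13e-05). The 77 tested genes of the mitochondrial genome itself had a median change of 4.25 in roots and 4.06 in shoots (log2). Of their interactions 6 were called above 0 and 10 below, beside 7.96% above and 20.5% below over all genes. Polyadenylated RNA was sequenced, and whether these values track the transcript levels of that genome was not tested.

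Among 9 antioxidant enzymes, 5 had the root response below and 1 above (median interaction -0.79), and these counts were unstable. They were 2 below and 1 above with TMM factors. Leaving out any library gave 2 or 3 below, except for replicates 1 and 3 of the gradient roots and replicate 2 of the 32 °C roots, and the 1 above was retained only without replicate 3 of the 32 °C roots, replicate 1 or 3 of the gradient roots, replicate 1 of the 22 °C shoots or replicate 2 of the 32 °C shoots. APX2 (AT3G09640), a heat-induced ascorbate peroxidase, had 162, 268 and 118 in 32 °C roots and 8 in the 22 °C root library, against 1134, 1237 and 843 in 32 °C shoots and 0 and 1 in 22 °C shoots (interaction -5.28 ± 0.56, adjusted p = 5.51e-05). The housekeeping cytosolic peroxidase APX1 (AT1G07890) fell 1.98-fold in roots and rose 2.17-fold in shoots, with 17948 to 21475 in 32 °C roots and 39644 in the 22 °C root library, against 17782 to 18489 in 32 °C shoots and 9599 and 7253 in 22 °C shoots. The organs overlapped at 32 °C and stood far apart at 22 °C (interaction -2.10 ± 0.24, adjusted p = 8.86e-05).

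Dark and sugar starvation genes rise when sugar runs short. Of 9 tested, 2 had the root response above and 2 below (median interaction 0.53), the first number being 3 with TMM factors or the replicate block. ASN1 (AT3G47340), an asparagine synthetase of carbon starvation, had 809, 621 and 1181 in 32 °C roots and 1119 in the 22 °C root library, against 6644, 8678 and 6156 in 32 °C shoots and 70701 and 92329 in 22 °C shoots. It overlapped in roots and fell 11.4-fold in shoots (interaction 3.10 ± 0.75, adjusted p = 0.00971). DIN10 (AT5G20250), of the raffinose synthase family, also overlapped in roots and fell 5.26-fold in shoots (interaction 2.33 ± 0.46, adjusted p = 0.00317). DIN2 (AT3G60140), a glucosidase, was the reverse, falling 13.3-fold in roots with overlapping shoot groups (interaction -3.92 ± 0.61, adjusted p = 0.000698). The other gene below was SAG13, given further on.

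Few DNA replication and mitosis genes had an interaction called. Of 22 tested, 5 had the root response below and none above, a share close to that over all genes (median interaction -0.34). The 5 fell to 2 with TMM factors and to 1 without replicate 2 of the 22 °C shoots. They were 2 without replicate 1 or 2 of the 32 °C roots or replicate 2 of the 32 °C shoots. Without replicate 2 of the gradient roots or replicate 1 of the 32 °C shoots they were 3. They rose to 7 without replicate 1 or 3 of the gradient roots. AUR2 (AT2G25880), a mitotic Aurora kinase, had 378, 380 and 379 in 32 °C roots and 484 in the 22 °C root library, against 241, 296 and 243 in 32 °C shoots and 166 and 147 in 22 °C shoots (interaction -1.08 ± 0.22, adjusted p = 0.00386). With TMM factors it was lower in roots and not called in shoots. Of the 13 green tissue markers none had an interaction called by limma, and 0 passed at an unadjusted p below 0.05 (median interaction 0.24). LHCB1.1 (AT1G29920), a light-harvesting protein with near-identical copies, had a 95% interval of -3.0 to 4.14.

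The largest interactions, by the rule used to name genes, belonged mostly to genes outside these groups. Of those given below, SAG13 is on the dark and sugar starvation list and AOX1D on the alternative respiration list. AT1G66930, a protein kinase, had 445, 460 and 528 in 32 °C roots and 3 in the 22 °C root library, against 69, 61 and 66 in 32 °C shoots and 62 and 67 in 22 °C shoots. It rose 119-fold in roots with overlapping shoot groups (interaction 6.88 ± 0.39, adjusted p = 1e-06). AT5G52940, a DUF295 protein, had 572, 471 and 724 in 32 °C roots and was listed at 0 in the 22 °C root library, against 322, 324 and 357 in 32 °C shoots and 33 and 48 in 22 °C shoots. LOV1 (AT2G02450), a NAC factor, had 82, 119 and 94 in 32 °C roots and 1 in the 22 °C root library, with 473 to 522 in 32 °C shoots overlapping 482 and 435 in 22 °C shoots (interaction 5.50 ± 0.30, adjusted p = 8.1e-07).

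HKT1 (AT4G10310), which withdraws sodium from the root xylem, had 2236, 2771 and 1743 in 32 °C roots and 65 in the 22 °C root library, against 186, 273 and 233 in 32 °C shoots and 201 and 150 in 22 °C shoots (interaction 4.68 ± 0.38, adjusted p = 1.28e-05). AT2G36690, a 2-oxoglutarate-dependent oxygenase, rose 15.8-fold in roots and fell 4.13-fold in shoots (interaction 6.03 ± 0.44, adjusted p = 6.67e-06). AT5G38940, a cupin, rose 5.86-fold in roots and fell 5.5-fold in shoots (interaction 5.01 ± 0.55, adjusted p = 6.73e-05).

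At the other end stood genes that fell in roots and rose in shoots. SAG13 (AT2G29350), a senescence-associated dehydrogenase, had 2, 4 and 1 in 32 °C roots and 377 in the 22 °C root library, against 236, 791 and 1327 in 32 °C shoots and 33 and 42 in 22 °C shoots (interaction -10.97 ± 1.04, adjusted p = 2.77e-05). BGAL7 (AT5G20710), a cell wall galactosidase, had 48, 45 and 41 in 32 °C roots and 3571 in the 22 °C root library, against 452, 464 and 247 in 32 °C shoots and 45 and 47 in 22 °C shoots (interaction -9.28 ± 0.40, adjusted p = 2.32e-07). The proteinase inhibitor TI1 (AT2G43510) fell 56.1-fold in roots and rose 4.84-fold in shoots (interaction -8.09 ± 0.70, adjusted p = 1.7e-05).

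ELIP1 (AT3G22840), a light-stress protein of chloroplasts, had 33, 35 and 30 in 32 °C roots and 642 in the 22 °C root library, against 102, 142 and 113 in 32 °C shoots and 11 and 7 in 22 °C shoots (interaction -7.86 ± 0.42, adjusted p = 8.1e-07). AOX1D (AT1G32350), a second alternative oxidase, had 4, 14 and 13 in 32 °C roots and 209 in the 22 °C root library, against 31, 114 and 184 in 32 °C shoots and 7 and 15 in 22 °C shoots (interaction -7.33 ± 1.13, adjusted p = 0.000629). FMO GS-OX2 (AT1G62540), which oxidises aliphatic glucosinolates, fell 2.99-fold in roots and rose 31.7-fold in shoots (interaction -6.57 ± 0.32, adjusted p = 5.71e-07). In each of these 6 genes the 22 °C root value rests on 1 library.

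Genes that moved the same way by unequal amounts filled the remaining classes. Among those higher in both organs and more in roots, BOR5 (AT1G74810), of the borate transporter family, rose 41.6-fold in roots and 3.31-fold in shoots (interaction 3.65 ± 0.39, adjusted p = 5.49e-05). DOGT1 (AT2G36800), a glucosyltransferase that inactivates brassinosteroids, rose 77.7-fold in roots and 5.71-fold in shoots (interaction 3.77 ± 0.82, adjusted p = 0.00526). Among those lower in both and more in shoots, the monosaccharide carrier STP1 (AT1G11260) had 3482, 2866 and 3757 in 32 °C roots and 7822 in the 22 °C root library, against 5479, 6257 and 5352 in 32 °C shoots and 45784 and 65352 in 22 °C shoots (interaction 2.04 ± 0.31, adjusted p = 0.000637). BCAT-2 (AT1G10070), which degrades branched-chain amino acids, fell 5.28-fold in roots and 23.9-fold in shoots (interaction 2.18 ± 0.51, adjusted p = 0.00813).

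Among those lower in both and more in roots, the glycine-rich protein GRP3S (AT2G05380) had 27, 31 and 41 in 32 °C roots and 1912 in the 22 °C root library, against 11398, 9239 and 8959 in 32 °C shoots and 22860 and 24145 in 22 °C shoots (interaction -4.57 ± 0.67, adjusted p = 0.000444). PGIP1 (AT5G06860), an inhibitor of fungal pectinases, fell 24.8-fold in roots and 2.49-fold in shoots (interaction -3.32 ± 0.46, adjusted p = 0.00032). APX2 and PS2, described above, are examples of genes higher in both organs and more in shoots.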

How the data were processed

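Polyadenylated RNA from roots and shoots was sequenced on an Illumina instrument, per the labels' protocols. The authors deposited counts that they had normalised and rounded to whole numbers, so each value is a score rather than a raw count. Normalisation method, genome build, annotation, strand and the handling of shared reads: not given in the sources used here. As tools, without saying what each did, the submitters' processing notes list DESeq2, HISAT2 and STAR 2.5.3a. Read depth is unknown, so no counting intervals are given, and no count model was fitted.

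One limma 3.58.1 model (R 4.3.3) on log2(value + 1), with a mean per group, an intensity trend and moderated two-sided tests, covered all 6 groups and 14 distinct libraries (8 residual degrees of freedom). The self-written steps were tested on simulated data. P-values were adjusted by the Benjamini-Hochberg method over all 20721 genes. Alternatives were other pseudocounts (0.5 and 8), no filter, TMM factors or equal totals within each organ, library weights, the 4 groups alone, a minimum 2-fold change, the replicate number as a block, and each library left out. The 22 °C root library was never left out, because no root response then remains. Identical columns counted once in the filter, and a block with other numbers for identical columns, were chosen after seeing the data.

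Same-numbered 32 °C roots and 32 °C shoots deviated together from their group means (correlations across genes of 0.22, 0.32 and 0.35). For gradient roots and shoots the correlations were 0.08 for replicate 1 and 0.03 for replicate 2. Whether the numbers pair the organs is not in the labels and was not tested. The main model treated all libraries as independent.

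Members, gene lists and tests were chosen with earlier results of these data known. Named genes are the largest interactions per direction and class with a group mean of at least 50, and members of each list, of which a readable selection was kept after their values had been seen. Names and products come from a TAIR10.1 table that matched 32548 of 32833 loci. Values of near-identical, overlapping or antisense genes are uncertain.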

Additional observations from a re-analysis of the deposited data

Results flagged for a closer look

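A difference between the organs in the same temperature contrast is what the report describes, so the genes listed here are those named in it that were called in both organs in opposite directions, with the interaction itself called by limma. Values in parentheses are the interaction, root response minus shoot response, on the log2 scale. The genes lower in 32 °C roots and higher in 32 °C shoots were SAG13 (-10.97), BGAL7 (-9.28), TI1 (-8.09), SAUR20 (-3.84), HFR1 (-2.29), HB-2 (-1.39), RAB18 (-5.39), P5CS1 (-2.92), RD22 (-1.58), NCED3 (-1.78), PIP2;3 (-1.72) and TIP1;1 (-1.57). The others of that kind were KCS2 (-3.53), ABCG6 (-3.48), CYP86A1 (-3.18), FAR5 (-3.07), LACS2 (-2.93), LHY (-2.44), RVE8 (-1.65), AOC2 (-3.92), BHLH101 (-4.32), AOX1D (-7.33), APX1 (-2.10), ELIP1 (-7.86) and FMO GS-OX2 (-6.57). The genes higher in 32 °C roots and lower in 32 °C shoots were AT2G36690 (6.03) and AT5G38940 (5.01). The shoot rises of SAUR20, HFR1, HB-2, NCED3, TIP1;1, CYP86A1, FAR5, LHY, RVE8 and BHLH101 were not called with TMM factors, while their interactions were. SAUR20 passed the filter on low values only through the 22 °C root library standing in 2 columns. All root responses among them rest on 1 library at 22 °C. Groups of 3 or fewer libraries were not searched for outlying samples.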

How the results depend on the processing

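The 1649 genes with the root response above the shoot response became 2660 with TMM factors, 3936 with library weights, 3050 with identical columns kept as separate replicates and 838 with a minimum 2-fold change. All 5890 interaction calls became 11569 with weights, 9196 with identical columns kept separate and 3818 with the minimum fold, and the 4241 below became 7633 with weights. Genes higher in roots numbered 4739 with TMM factors and 3804 with the minimum fold, and genes lower in roots 5078 with TMM factors, 5061 with weights and 1345 with the minimum fold. Genes higher in shoots numbered 6284 with TMM factors and 5660 with the minimum fold, and genes lower in shoots 5722 and 663. The 165 genes higher in roots and lower in shoots became 248 with TMM factors, 446 with weights, 253 with the 4 groups alone, 284 with identical columns kept separate and 29 with the minimum fold. The 689 genes lower in roots and higher in shoots became 1556 with weights, 1128 with identical columns kept separate and 256 with the minimum fold.

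Leaving out 1 library gave 4251 to 7769 interaction calls, 1084 to 2508 above and 3167 to 5261 below, 6867 to 8300 genes higher and 2531 to 3404 lower in roots, 8815 to 11544 higher and 1751 to 2644 lower in shoots, 99 to 265 higher in roots and lower in shoots, and 535 to 851 the reverse. The high end of every one of these counts came without replicate 3 of the gradient roots. The low end came without replicate 1 of the 32 °C roots for the 2 root counts and without replicate 2 of the 22 °C shoots for the others. The 22 °C root library could not be left out, because no root response then remains, and each organ fitted alone gives no interaction.

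With the replicate number as a block 5972 interactions were called, 1798 above and 4174 below. Among the genes named, the block changed 1 call, that of PYK10, and no other. The direction turned for YUC8 without replicate 1 of the 22 °C shoots (-0.17), without replicate 2 of the 32 °C shoots (-0.07) and under the block with other numbers for identical columns (-0.024), for HSP70 without replicate 2 of the 22 °C shoots (0.13) and for HSFA2 without replicate 1 of them (-0.39). Over the left-out libraries the interaction ranged between -0.17 and 0.34 for YUC8, -0.71 and 0.13 for HSP70, and -0.39 and 1.19 for HSFA2, and it was called in none of the 3. The cause of these changes was not tested.

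Library weights and separate identical columns raised several list counts too. The number below the shoot response was 18 of 23 phosphate genes and 11 of 22 replication genes with weights, 9 of the replication genes with identical columns kept separate, and 7 of 11 cold-regulated genes with weights and 5 with separate columns. Without the filter on low values it was 7 for phosphate, 3 for replication and 3 for antioxidant genes. Beside the genes given in the report, pseudocounts of 0.5 and 8 moved the interaction of BHLH38 (-3.79 and -2.38), APX2 (-5.91 and -3.47), LOV1 (5.91 and 3.43) and AT5G52940 (7.13 and 3.36) between them, and all 4 stayed called.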
